A study of Mus musculus with 28 samples.

Results

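This section describes how macrophages from the pancreas of mice given lactate, at day 1 of recovery from acute pancreatitis, differed from those of the group labelled NC. The comparison used 9 of the 28 libraries of the series, 6 labelled D1 AP+Lac and 3 labelled NC, chosen by their labels alone. All were RNA-seq libraries of macrophages that had been sorted by flow cytometry from the pancreas of C57BL/6J wild-type mice. The D1 AP+Lac mice had received caerulein, a secretagogue whose repeated injection makes the acinar cells of the pancreas digest themselves, and the labels put them at day 1 of a recovery model with lactate. What NC stands for, its day and any treatment of it are not given, so NC is used here as a name. The dose and route of lactate, the sex and age of the mice and the sorting gate are not given either. A pair of other groups serves to show where the difference from NC was not the same, namely D0 (5 libraries of caerulein-treated wild-type mice at day 0) and D1 AP+PBS (6 libraries at day 1 with PBS in place of lactate). Values are FPKM, that is fragments per kilobase of a transcript relative to the depth of the library. Fold changes and their standard errors (SE) are on the log2(FPKM + 1) scale, on which changes of low genes come out too small, and a positive one means higher in D1 AP+Lac. A gene was called when limma's p-value, adjusted by Benjamini-Hochberg over all 11960 genes tested, was under 0.05.

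Resident macrophages of the pancreas live there for long periods, take up dead cells and debris, and carry scavenger receptors and lectins such as Lyve1, Timd4 and Cd163. After injury, monocytes from the blood enter the tissue, become macrophages and pass through inflammatory and reparative states. Interferons are cytokines that act through receptors on the same and neighbouring cells, where transcription factors switch on interferon-stimulated genes: sensors of foreign nucleic acid, blockers of viral replication, GTPases that attack the vacuoles of intracellular pathogens, and the machinery that loads peptides on MHC class I. Type I interferons and interferon gamma, which T and NK cells make, drive overlapping sets of these genes. Lactate, the end product of glycolysis, crosses membranes through the monocarboxylate transporters and is also the source of the lysine modification called lactylation.

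Depth, recovered from the steps between FPKM values, was 36633038 to 39700935 fragments in these 9 libraries. The labels do not say that libraries came from separate animals, so p-values measure only the spread between these libraries, and limma pooled that spread over all 28. Within D1 AP+Lac, libraries 5 and 6 stood apart. Over all genes tested they correlated with the other 4 at 0.948 to 0.976 (Pearson r on the log2 scale), while those 4 correlated with each other at 0.975 to 0.991 and libraries 5 and 6 with each other at 0.984. The 3 NC libraries correlated with each other at 0.990 to 0.992. Libraries 5 and 6 of D1 AP+PBS lay close to libraries 5 and 6 of D1 AP+Lac in several marker lists. PBS library 5 correlated at 0.985 with D1 AP+Lac library 1, at 0.986 with library 5 and at 0.984 with library 6, against 0.940 to 0.953 with PBS libraries 1 to 4. Many counts and calls below are given also without these libraries. The labels name no batch. A batch of libraries 5 and 6 would lie in both day 1 groups, and its part in the comparison with PBS was not tested. An exchange of libraries between the day 1 groups cannot be told apart from lactate in that comparison.

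The label macrophage was checked against 16 macrophage markers. The mean log2(FPKM + 1) of this list was 7.91, 7.99, 7.55, 7.81, 8.36 and 8.71 in D1 AP+Lac libraries 1 to 6, against 8.35, 8.39 and 8.54 in NC, so libraries 1 to 4 lay below NC, library 5 inside its range and library 6 above it. The defining markers were present in every library. Adgre1, which encodes F4/80, had a low of 143, a median of 217 and a high of 379 FPKM in D1 AP+Lac, against 302, 275 and 402 in NC, overlapping ranges (log2 fold change -0.54, SE 0.25, adjusted p = 0.13). Csf1r, the receptor for the growth factor that macrophages depend on, had 268 to 604 FPKM (median 358) in D1 AP+Lac, against 758, 663 and 889.5 FPKM in NC and fell (log2 fold change -1.04, SE 0.19, adjusted p = 2.2e-04). Of the 16 markers 1 rose and 5 fell, and among those with the smallest p were C1qc, a chain of complement C1q (-1.20), Cx3cr1, the fractalkine receptor (-0.99), and Fcgr1, a high-affinity antibody receptor, which was the one that rose (1.49). The count of lower markers was 3 without NC library 3 and 8 without D1 AP+Lac libraries 5 and 6. Fcgr1 lost its call without NC library 1 or 3 (adjusted p = 0.053 to 0.069), without D1 AP+Lac libraries 5 and 6 (adjusted p = 0.053) and in the fit with the acinar level (adjusted p = 0.34), and Cx3cr1 lost its call without NC library 3 (adjusted p = 0.097) and in the fit with the acinar level (adjusted p = 0.054).

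RNA of other cell types was also present, and its amount moved with the groups. The mean log2(FPKM + 1) of 20 T and NK cell markers was 5.24, 4.97, 5.03 and 5.25 in D1 AP+Lac libraries 1 to 4 and 4.28 and 3.91 in libraries 5 and 6, against 3.88, 3.68 and 3.31 in NC. For 15 markers of B and plasma cells the level was 5.22 to 5.93 in D1 AP+Lac libraries 1 to 4 and 3.63 and 3.57 in libraries 5 and 6, against 4.70, 4.53 and 4.45 in NC. Acinar cell markers, 30 genes for digestive enzymes and their regulators, were lower in every D1 AP+Lac library (4.06 to 5.42) than in NC (5.95 to 6.53). Their summed level was 1645 to 5336 FPKM in D1 AP+Lac, against 7707 to 12310 FPKM in NC. Fibroblast and stellate cell markers were at 2.41 to 3.48 in D1 AP+Lac libraries 1 to 4 and at 1.43 and 1.50 in libraries 5 and 6, against 1.69 to 1.94 in NC. Neutrophil markers were at 2.08 to 3.98 in D1 AP+Lac and 1.85 to 2.54 in NC. Dendritic cell markers were at 4.10 to 4.50 in D1 AP+Lac and 4.37 to 4.49 in NC, and endothelial markers at 1.05 to 2.40 in D1 AP+Lac and 1.52 to 1.95 in NC. Islet markers were near 0 in both groups, with summed levels of 0.285 to 1.65 FPKM in D1 AP+Lac and 1.77 to 2.38 FPKM in NC. In RNA of a sorted pool, fewer cells of a type and less RNA per cell cannot be told apart, and the part of other cell types in the results below was not tested except where a value is given.

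**Figure D1:**
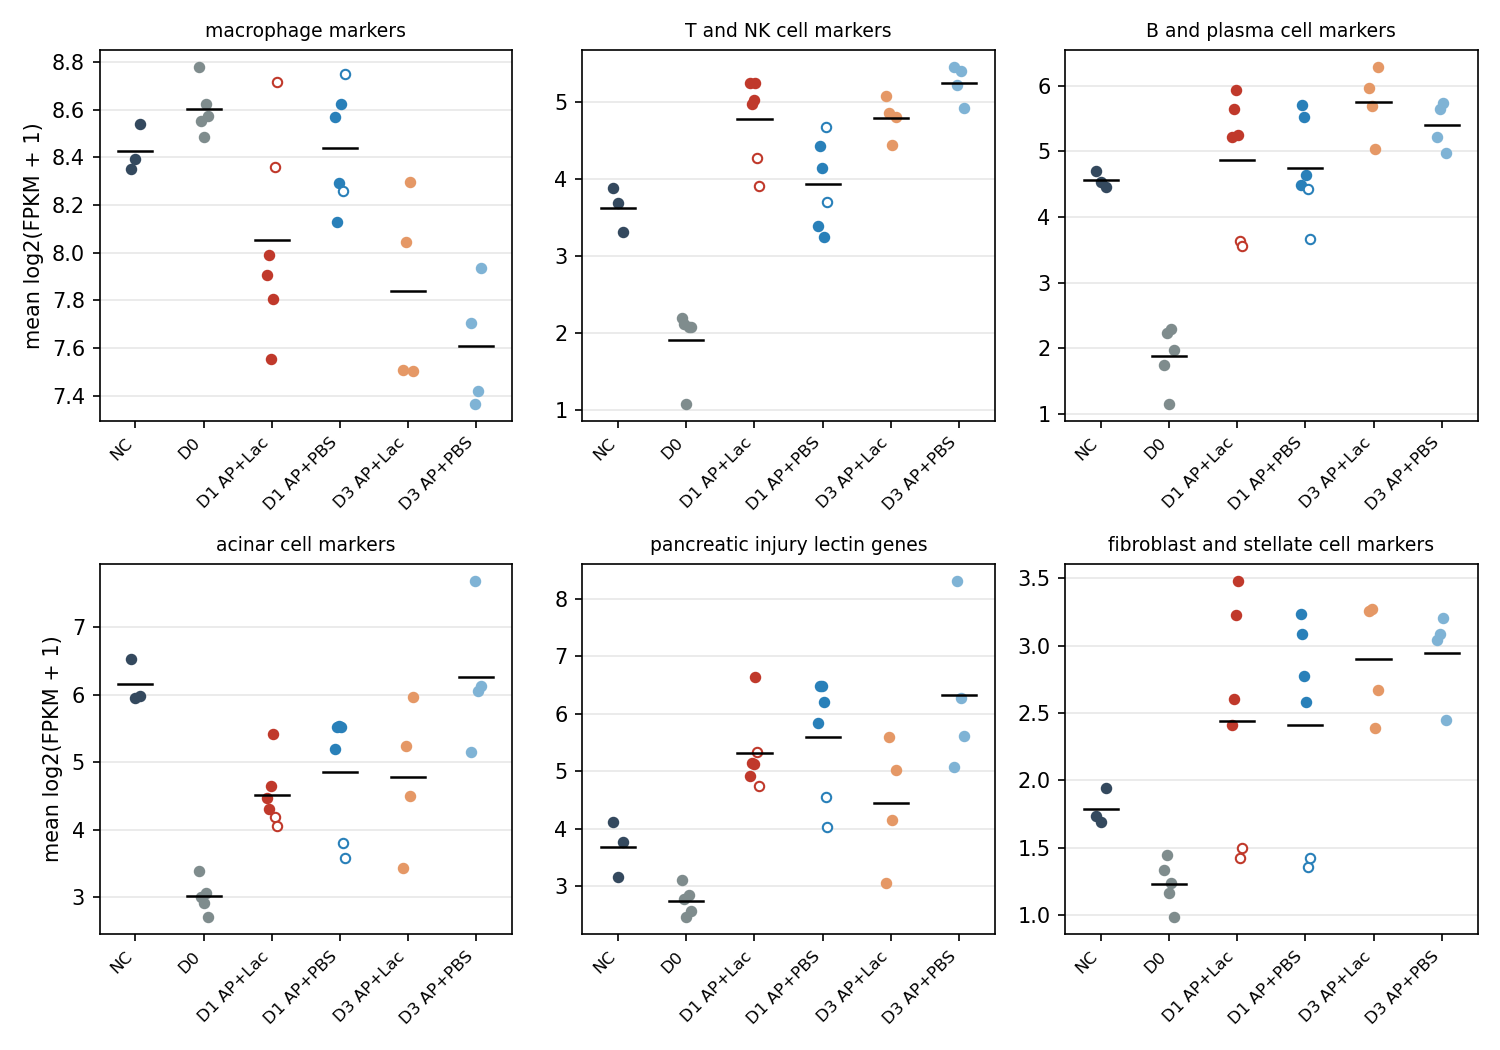
Mean log2(FPKM + 1) of 6 cell type marker lists (y axis) in every library of the 6 groups (x axis), 1 point per library, with a line at the group mean; open points are libraries 5 and 6 of the day 1 groups, and each panel has its own y range that does not start at 0. D1 AP+Lac libraries 5 and 6 had the highest macrophage marker levels (8.36 and 8.71) and the lowest T and NK cell levels (4.28 and 3.91) of their group, and all 6 D1 AP+Lac libraries lay below the 3 NC libraries in acinar markers.

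Of the 11960 genes tested, 1033 were higher in D1 AP+Lac than in NC (8.64%) and 1496 were lower (12.5%), which is the background for each list count against NC. The median log2 fold change over all genes was 0.02, with quartiles of -0.18 and 0.22, and 301 of the higher and 410 of the lower genes differed by at least 2-fold. The counts depended on single libraries: 431 genes were higher and 913 lower without NC library 3, 612 were higher without NC library 1, and 1906 were higher without D1 AP+Lac libraries 5 and 6. In every one of the 9 fits that left out 1 library, 394 higher and 832 lower genes were called. A fit that took the acinar level into account called 835 higher and 1056 lower genes. In it, 6 of the 15 genes highest against NC, namely Cxcl10, Isg15, Ifit2, Acod1, Irf7 and Tgtp1, were not called (adjusted p = 0.054 to 0.21). The 15 highest and 15 lowest were ranked by the naming rule given with the processing, which leaves out gene models and genes of low FPKM.

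How far each library lay from NC was measured as the mean absolute log2 difference from the NC mean over all genes tested. This distance was 0.418 ± 0.036 in D1 AP+Lac (SD, n = 6), 0.358 ± 0.035 in D1 AP+PBS (n = 6) and 0.659 ± 0.027 in D0 (n = 5), and an NC library lay 0.157 ± 0.010 from the other NC libraries (n = 3). D1 AP+Lac libraries were closer to NC than D0 libraries (difference -0.24, two-sided exact permutation p = 0.0043, adjusted p = 0.0087, with no overlap). They were farther from NC than D1 AP+PBS libraries (difference 0.0593, two-sided exact permutation p = 0.022, adjusted p = 0.022), where the ranges 0.379 to 0.467 and 0.316 to 0.410 overlapped.

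**Figure D2:**
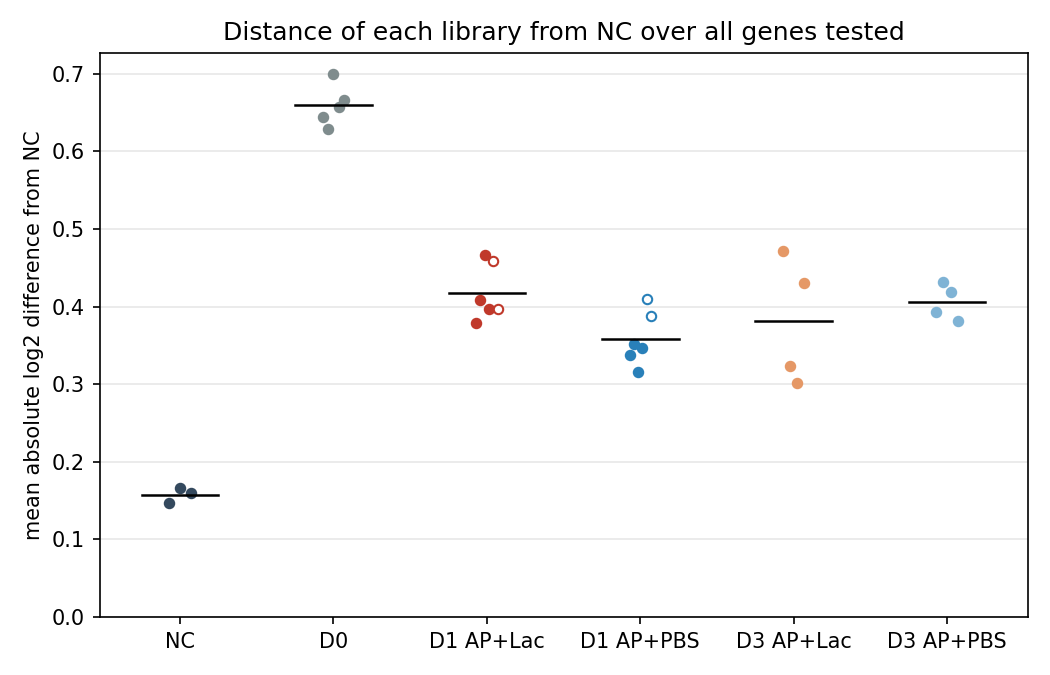
Mean absolute difference of log2(FPKM + 1) from the NC mean over all genes tested (y axis) for every library of the 6 groups (x axis), with a line at the group mean and open points for libraries 5 and 6 of the day 1 groups; an NC library is set against the other NC libraries. D0 libraries lay farthest from NC (0.629 to 0.699), and D1 AP+Lac libraries lay at 0.379 to 0.467.

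Interferon-stimulated genes were higher in D1 AP+Lac. Of 37 type I interferon-stimulated genes, 34 were tested, 33 were higher and 0 lower, and their median log2 fold change was 2.02. Among the 15 genes ranked highest by the naming rule were the ubiquitin-like Isg15, the translation blocker Ifit2, Ifi44 and the transcription factor Irf7. Isg15 had 149 to 1100 FPKM (median 418) in D1 AP+Lac, against 39.1, 50.0 and 27.9 FPKM in NC (log2 fold change 3.42, SE 0.77, adjusted p = 0.0019). Ifi44 had 21.2 to 54.1 FPKM (median 33.3) in D1 AP+Lac, against 3.14, 3.18 and 1.56 FPKM in NC (log2 fold change 3.31, SE 0.62, adjusted p = 3.6e-04). Irf7, which amplifies the transcription of interferon genes, had 203, 560 and 1093 FPKM (lowest, median, highest) in D1 AP+Lac, against 78.9, 69.2 and 37.8 FPKM in NC (log2 fold change 3.11, SE 0.66, adjusted p = 0.0012). For all 3 the lowest D1 AP+Lac library lay above the highest NC library, and D1 AP+Lac library 5 was the highest for Isg15 and Ifi44. The spread inside D1 AP+Lac was wide as well, with a list level of 5.61 to 7.55 over its 6 libraries, against 4.20 to 4.61 in NC.

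Sensors and effectors of the list shared this direction. Zbp1, a sensor of left-handed nucleic acid that starts cell death, had a low of 138, a median of 186 and a high of 337 FPKM in D1 AP+Lac, against 30.4, 33.7 and 20.2 in NC (log2 fold change 2.78, SE 0.56, adjusted p = 7.4e-04). Bst2, which tethers budding virus to the cell surface, had 269.6, 410 and 956 FPKM (lowest, median, highest) in D1 AP+Lac, against 141, 143 and 117 FPKM in NC (log2 fold change 1.72, SE 0.36, adjusted p = 0.0011). Oas3, which makes the messenger that activates RNase L, had 42.4 to 182 FPKM (median 102) in D1 AP+Lac, against 13.9, 15.8 and 6.72 FPKM in NC (log2 fold change 2.90, SE 0.62, adjusted p = 0.0013). Ifit2 had 37.7, 152 and 461 FPKM (lowest, median, highest) in D1 AP+Lac, against 13.2, 14.0 and 9.08 FPKM in NC (log2 fold change 3.38, SE 0.86, adjusted p = 0.0056). Slfn4, a Schlafen family gene of myeloid cells that interferon induces and the highest of the genes named by rule, had 64.7, 215 and 621 FPKM (lowest, median, highest) in D1 AP+Lac, against 10.2, 17.7 and 6.35 FPKM in NC (log2 fold change 4.23, SE 0.83, adjusted p = 5.9e-04). None of these ranges overlapped. Ifi27, named here after its value was seen, was the single member not called (log2 fold change -1.21, SE 0.45, adjusted p = 0.054). The count of the list was 29 without NC library 1, 21 without NC library 3 and 29 without D1 AP+Lac libraries 5 and 6. In the fit with the acinar level 3 of the 34 were called, and the acinar level did not overlap between D1 AP+Lac and NC.

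Promoters were read for the members with the smallest p that held the core letters of the interferon-stimulated response element, GAAANNGAA on either strand. The sequences are those of RefSeq on GRCm38.p6, from 250 bases before to 50 after the annotated start, written 5′ to 3′ on the strand of the gene, with the matches in capitals. They show where these letters stand in 4 of the members with the smallest p: once in Ifi44, and as overlapping copies in the others. Ifi44 lies at chr3:151749861-151750160, Bst2 at chr8:71537423-71537722, Oas3 at chr5:120777610-120777909 and Isg15 at chr4:156200769-156201068, all on the minus strand.
Ifi44: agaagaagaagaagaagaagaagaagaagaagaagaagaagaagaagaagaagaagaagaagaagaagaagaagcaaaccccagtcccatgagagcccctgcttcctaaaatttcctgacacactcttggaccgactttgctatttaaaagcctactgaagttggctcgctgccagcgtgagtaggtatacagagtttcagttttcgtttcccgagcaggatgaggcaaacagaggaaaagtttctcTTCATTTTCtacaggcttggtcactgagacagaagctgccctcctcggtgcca
Bst2: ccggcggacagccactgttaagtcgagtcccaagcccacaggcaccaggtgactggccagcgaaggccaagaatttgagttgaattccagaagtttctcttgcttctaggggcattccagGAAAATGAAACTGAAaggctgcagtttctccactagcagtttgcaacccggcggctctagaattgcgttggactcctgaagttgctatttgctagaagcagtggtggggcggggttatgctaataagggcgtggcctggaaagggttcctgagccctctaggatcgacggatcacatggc
Oas3: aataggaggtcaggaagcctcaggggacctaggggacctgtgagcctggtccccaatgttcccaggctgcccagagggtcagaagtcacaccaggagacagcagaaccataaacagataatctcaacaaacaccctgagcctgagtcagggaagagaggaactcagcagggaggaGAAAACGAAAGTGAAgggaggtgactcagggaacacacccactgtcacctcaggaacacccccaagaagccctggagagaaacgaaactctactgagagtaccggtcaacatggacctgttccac
Isg15: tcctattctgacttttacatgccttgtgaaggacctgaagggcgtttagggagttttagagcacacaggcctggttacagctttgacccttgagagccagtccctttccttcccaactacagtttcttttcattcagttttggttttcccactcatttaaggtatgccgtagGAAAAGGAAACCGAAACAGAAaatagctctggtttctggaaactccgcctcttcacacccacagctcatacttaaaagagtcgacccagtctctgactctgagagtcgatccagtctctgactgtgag
The first base of the match lay 3 bases before the start of Ifi44, 130 and 124 before that of Bst2, 75 and 69 before that of Oas3 and 78, 72 and 66 before that of Isg15. Of 24 tested list members with a promoter in the table, 15 (62.5%) held these letters, and so did 2638 of all 27025 genes with a promoter (9.8%). A match is a description of letters and not of a bound site.

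**Figure D3:**
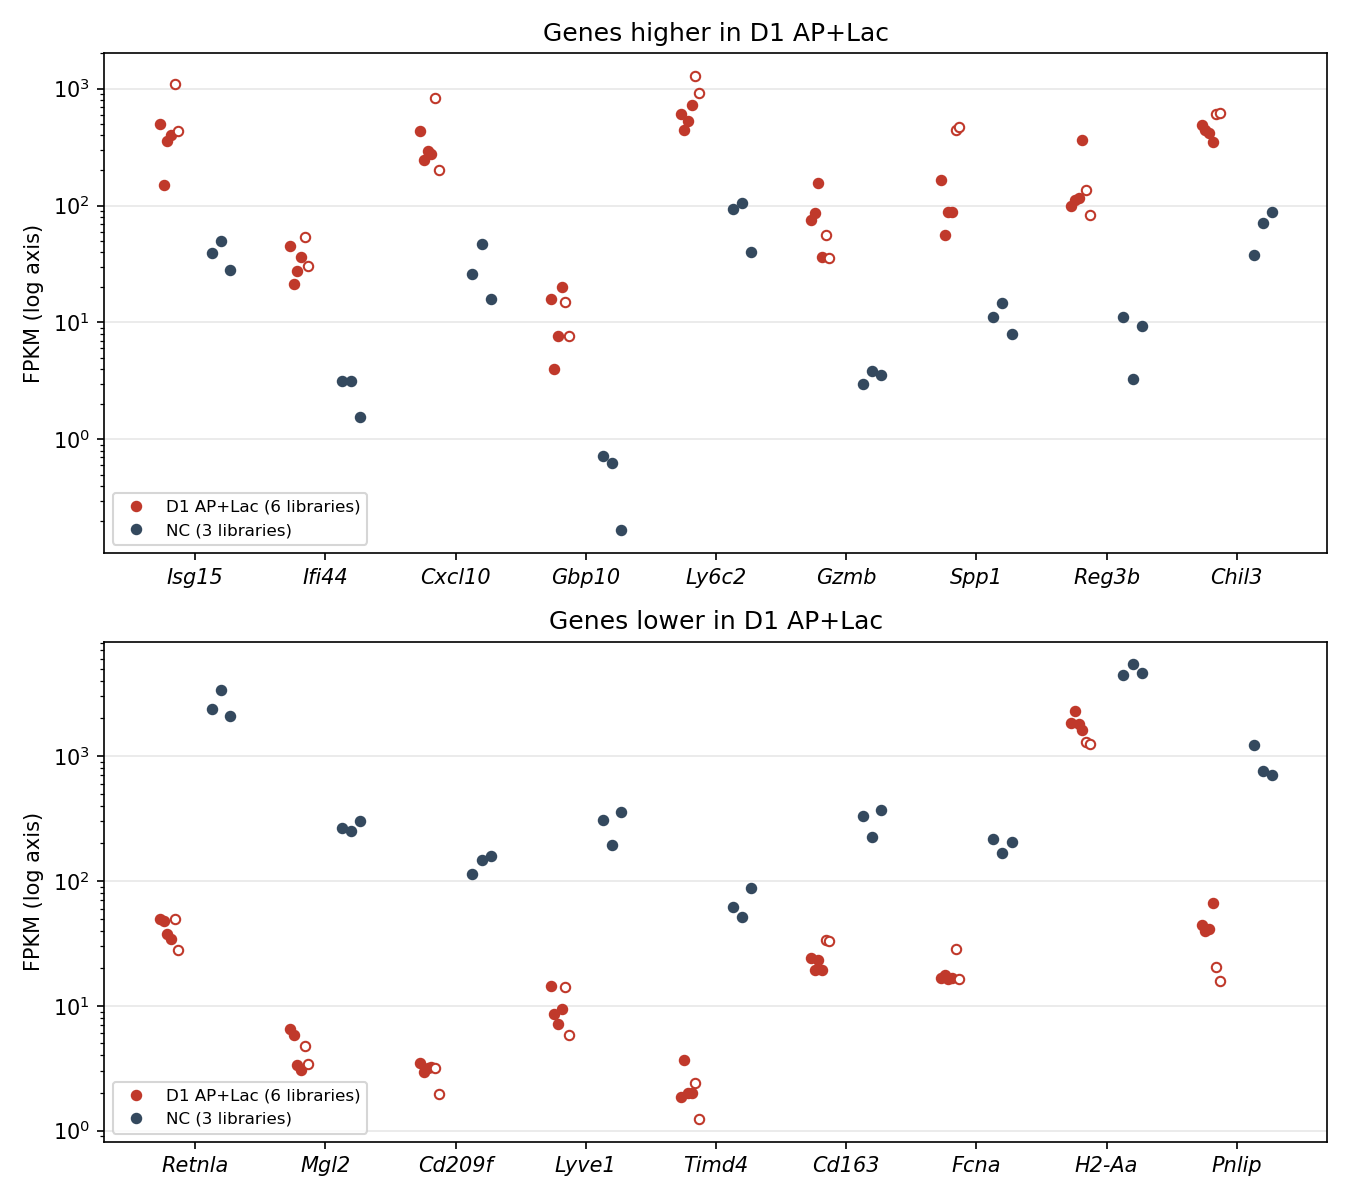
FPKM on a log axis (y) of 9 genes that were higher and 9 that were lower in D1 AP+Lac (x axis), 1 point per library, with D1 AP+Lac left of NC; open points are D1 AP+Lac libraries 5 and 6. For each of these 18 genes the 6 D1 AP+Lac libraries lie on one side of the 3 NC libraries; Isg15 was at 149 to 1100 FPKM in D1 AP+Lac, against 27.9 to 50.0 FPKM in NC, and Retnla at 28.1 to 49.7 FPKM in D1 AP+Lac, against 2108 to 3386 FPKM in NC.

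The GTPases that interferon induces, which coat and break the vacuoles of intracellular microbes, were higher as well. All 17 tested members were higher (background 8.64%), with a median log2 fold change of 2.18 and fold changes from 1.17 to 3.08. Gbp10, a guanylate-binding protein, had 3.98 to 19.9 FPKM (median 11.3) in D1 AP+Lac, against 0.727, 0.633 and 0.166 FPKM in NC (log2 fold change 2.93, SE 0.58, adjusted p = 6.3e-04). Tgtp1, a GTPase first found in T cells, had 25.1, 47.4 and 68.8 FPKM (lowest, median, highest) in D1 AP+Lac, against 5.91, 4.86 and 2.56 FPKM in NC (log2 fold change 3.08, SE 0.69, adjusted p = 0.0019). Irgm1, a regulator of the family, had a low of 125, a median of 132 and a high of 216 FPKM in D1 AP+Lac, against 35.5, 37.4 and 26.3 in NC (log2 fold change 2.11, SE 0.46, adjusted p = 0.0014). Igtp and Gbp4 followed with fold changes of 2.19 and 2.48. Without overlap in any of these 5, the call count of the list still fell to 13 without NC library 1 and to 10 without NC library 3, and it was 1 in the fit with the acinar level. Tgtp1 and Tgtp2, and several guanylate-binding proteins, are near-identical copies among which the counting, whose rule is not stated, may have split fragments, and the same holds for Ifit1 and Ifit3 with their copies.

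Chemokines that draw T and NK cells were higher too. Cxcl10 had 203, 284 and 826 FPKM (lowest, median, highest) in D1 AP+Lac, against 26.2, 46.6 and 15.8 FPKM in NC (log2 fold change 3.59, SE 0.89, adjusted p = 0.0046). Cxcl9, whose induction depends on interferon gamma, had a low of 58.3, a median of 106 and a high of 125 FPKM in D1 AP+Lac, against 10.6, 19.9 and 9.35 in NC (log2 fold change 2.77, SE 0.80, adjusted p = 0.014). Neither overlapped, but Cxcl9 lost its call without NC library 1 or 3 (adjusted p = 0.061 to 0.079). In the fit with the acinar level both Cxcl10 and Cxcl9 lost their call (adjusted p = 0.14 and 0.35). Acod1, which makes the metabolite itaconate and is induced by interferons and bacterial products, had a low of 12.98, a median of 31.8 and a high of 44.3 FPKM in D1 AP+Lac, against 0.918, 4.69 and 1.64 in NC (log2 fold change 3.12, SE 0.81, adjusted p = 0.0065). Acod1 lost its call in the fit with the acinar level (adjusted p = 0.21) and by limma voom on the recovered fragments (adjusted p = 0.05). Il1rn, the natural blocker of the interleukin 1 receptor, had a low of 30.3, a median of 73.0 and a high of 105 FPKM in D1 AP+Lac, against 13.9, 16.6 and 11.1 in NC (log2 fold change 2.18, SE 0.62, adjusted p = 0.012) and lost its call without NC library 3 (adjusted p = 0.071) and in the fit with the acinar level (adjusted p = 0.23).

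Antigen presentation split by class. Of 17 genes that load peptides on MHC class I, 12 were higher and 0 lower, with a median of 0.74. Tap1, a chain of the transporter that carries peptides into the endoplasmic reticulum, had 158 to 189 FPKM (median 179) in D1 AP+Lac, against 80.8, 92.6 and 69.7 FPKM in NC (log2 fold change 1.14, SE 0.22, adjusted p = 5.7e-04). Psmb9, an immunoproteasome subunit, had 128 to 183 FPKM (median 171) in D1 AP+Lac, against 77.3, 92.5 and 67.7 FPKM in NC (log2 fold change 1.02, SE 0.19, adjusted p = 2.6e-04). Its partners Psmb8 and Psmb10 and the activator subunit Psme1 rose by 0.74, 0.88 and 0.83. In contrast, of 11 MHC class II genes 0 were higher and 7 lower (background 12.5%), with a median of -0.92. Cd74, the invariant chain that guards the class II groove, had a low of 2161, a median of 2880 and a high of 3872 FPKM in D1 AP+Lac, against 7402, 8523 and 7222 in NC (log2 fold change -1.44, SE 0.20, adjusted p = 4.9e-06). H2-Aa, H2-Eb1 and H2-Ab1, the classical class II chains, had fold changes of -1.54, -1.59 and -1.41, and H2-DMb1, which exchanges their peptides, had -1.02. No D1 AP+Lac library reached the lowest NC library for Cd74 or the 3 chains. D1 AP+Lac libraries 5 and 6 had the lowest class II list levels, 6.72 and 6.84, against 7.37 to 7.72 in the other 4 and 8.03 to 8.29 in NC, and 6 members were still lower without that pair and 11 in the fit with the lymphocyte level. The class I count was 8 without NC library 3 and 4 with the acinar covariate.

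Among 20 markers of T and NK cells 6 rose (30.0%, background 8.64%) and 0 fell, and 14 were not called. The counts were 6 and 0 in the fit with the acinar level and 6 and 2 in that with the lymphocyte level, and 13 rose without D1 AP+Lac library 6 and 15 without libraries 5 and 6. Gzmb, a protease of cytotoxic granules, had a low of 35.3, a median of 65.8 and a high of 157 FPKM in D1 AP+Lac, against 2.98, 3.87 and 3.53 in NC (log2 fold change 3.89, SE 0.45, adjusted p = 3.7e-07). Gzma, another granule protease, had 63.6 to 187 FPKM (median 122) in D1 AP+Lac, against 10.4, 10.5 and 10.4 FPKM in NC (log2 fold change 3.35, SE 0.45, adjusted p = 3.9e-06). Prf1, the pore-forming perforin, had 6.00 to 14.9 FPKM (median 11.0) in D1 AP+Lac, against 2.92, 2.18 and 1.43 FPKM in NC (log2 fold change 1.81, SE 0.30, adjusted p = 8.4e-05). The NK cell receptor gene Ncr1 and the transcription factor gene Eomes rose by 1.44 and 1.31. These 5 did not overlap between the groups and were called in all 9 fits without 1 library. The general T cell genes Cd3d and Cd3e, named after their values were seen, had fold changes of 1.05 and 0.86 and were not called (adjusted p = 0.09 and 0.17).

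**Figure D4:**
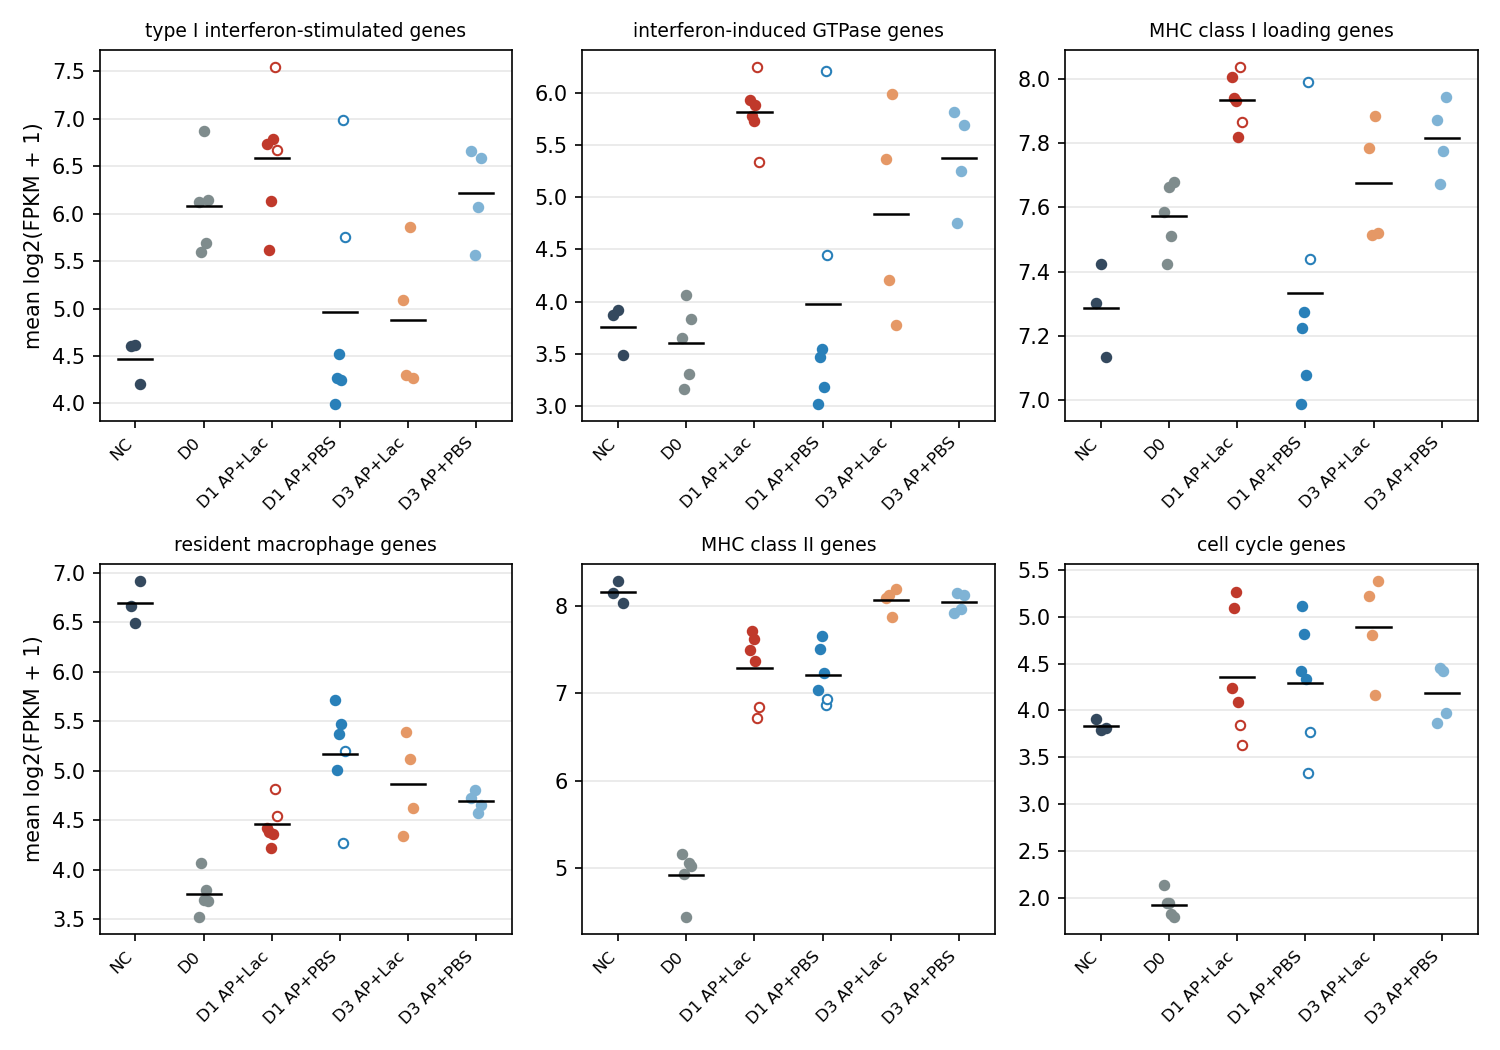
Mean log2(FPKM + 1) of 6 gene lists (y axis) in every library of the 6 groups (x axis), with a line at the group mean; open points are libraries 5 and 6 of the day 1 groups, and each panel has its own y range that does not start at 0. The interferon-induced GTPase genes were at 5.34 to 6.25 in D1 AP+Lac, against 3.49 to 3.92 in NC, and the resident macrophage genes at 4.22 to 4.82 in D1 AP+Lac, against 6.50 to 6.92 in NC.

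Genes of resident macrophages were lower in D1 AP+Lac. Of 26 tested, 0 rose and 21 fell (background 12.5%), with a median log2 fold change of -1.92 and 19 to 22 lower across the fits without 1 library. The list level did not overlap, at 4.22 to 4.82 in D1 AP+Lac and 6.50 to 6.92 in NC. Lyve1, a hyaluronan receptor of macrophages along vessels, had 5.87 to 14.5 FPKM (median 9.04) in D1 AP+Lac, against 307, 195 and 354 FPKM in NC (log2 fold change -4.73, SE 0.38, adjusted p = 5.6e-10). Timd4, a phosphatidylserine receptor for dying cells, had 1.24 to 3.70 FPKM (median 2.01) in D1 AP+Lac, against 61.4, 51.2 and 87.8 FPKM in NC (log2 fold change -4.40, SE 0.25, adjusted p = 1.7e-12). Cd163, the receptor for haemoglobin bound to haptoglobin, had 19.3 to 33.6 FPKM (median 23.9) in D1 AP+Lac, against 334, 226 and 372 FPKM in NC (log2 fold change -3.56, SE 0.43, adjusted p = 9.4e-07). No D1 AP+Lac library came near the NC range in any of the 3, and NC library 2 was the lowest of its group each time.

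Lectins of this list fell as well. Cd209f had a low of 1.97, a median of 3.17 and a high of 3.51 FPKM in D1 AP+Lac, against 113, 148 and 159.5 in NC (log2 fold change -5.14, SE 0.35, adjusted p = 4.4e-11). Cd209g had 0.715, 0.985 and 1.23 FPKM (lowest, median, highest) in D1 AP+Lac, against 57.4, 74.6 and 76.9 FPKM in NC (log2 fold change -5.16, SE 0.28, adjusted p = 1.2e-12). Both belong to the mouse SIGN family, C-type lectins whose copies are similar enough that fragments may have been shared. Fcna, a ficolin that binds sugars on microbes, had a low of 16.3, a median of 16.6 and a high of 28.6 FPKM in D1 AP+Lac, against 216, 169 and 206 in NC (log2 fold change -3.35, SE 0.29, adjusted p = 3.0e-09). Mrc1, the mannose receptor, fell less (-1.79), with 82.5 to 160.5 FPKM (median 127) in D1 AP+Lac, against 379, 353 and 541 FPKM in NC. In the overlapping list of 20 scavenger and efferocytosis receptor genes 8 were lower and 0 higher, among them Colec12, a scavenger receptor with a collagen-like stalk (-3.32), Cd36, a receptor for oxidised lipid (-3.02), and Gas6, the bridge between dying cells and TAM receptors (-2.05).

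Alternative activation, the state that interleukin 4 induces, did not move as one. Of 22 genes 4 rose and 9 fell, with 1 higher and 9 lower in the fit with the acinar level. Retnla, a secreted protein of this state, was the gene with the lowest fold change of those named by rule and had 28.1, 42.4 and 49.7 FPKM (lowest, median, highest) in D1 AP+Lac, against 2375, 3386 and 2108 FPKM in NC (log2 fold change -5.96, SE 0.38, adjusted p = 1.1e-11). Mgl2, a galactose-binding lectin, had 3.08, 4.09 and 6.47 FPKM (lowest, median, highest) in D1 AP+Lac, against 266, 252 and 302 FPKM in NC (log2 fold change -5.68, SE 0.28, adjusted p = 1.7e-13). Klf4, a transcription factor downstream of interleukin 4, fell by 1.91 on the log2 scale. In the other direction, Chil3, a chitinase-like protein made by monocytes and alternatively activated cells alike, had 348 to 624 FPKM (median 464) in D1 AP+Lac, against 37.8, 70.5 and 88.2 FPKM in NC (log2 fold change 2.93, SE 0.38, adjusted p = 2.6e-06). Arg1, arginase 1, had a low of 8.10, a median of 21.2 and a high of 33.0 FPKM in D1 AP+Lac, against 1.37, 16.6 and 0.958 in NC (log2 fold change 2.13, SE 0.75, adjusted p = 0.045). NC library 2 lay inside the D1 AP+Lac range. Arg1 lost its call without D1 AP+Lac library 1, 2, 5 or 6 or NC library 1 or 3 (adjusted p = 0.062 to 0.29), without D1 AP+Lac libraries 5 and 6 (adjusted p = 0.1) and in the fit with the acinar level (adjusted p = 0.41).

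Monocyte genes and the genes of lipid-associated macrophages were mixed too. Of 25 monocyte genes 9 were higher and 2 lower, with 5 higher in the fit with the acinar level. Ly6c2, the surface marker of classical monocytes, had a low of 441, a median of 668 and a high of 1290 FPKM in D1 AP+Lac, against 94.0, 106 and 40.3 in NC (log2 fold change 3.24, SE 0.65, adjusted p = 7.0e-04). Ccr2, the receptor that leads monocytes out of the marrow, had 169 to 385 FPKM (median 243) in D1 AP+Lac, against 135, 227 and 148 FPKM in NC, with overlapping ranges (log2 fold change 0.62, SE 0.23, adjusted p = 0.048). Ccr2 lost its call without D1 AP+Lac library 2, 4, 5 or 6 or NC library 1 or 3 (adjusted p = 0.053 to 0.25), without D1 AP+Lac libraries 5 and 6 (adjusted p = 0.17) and in the fit with the acinar level (adjusted p = 0.45). Ear2, an eosinophil-associated ribonuclease, and Fn1, fibronectin, were the members that fell (-3.58 and -1.83). Ly6a, a surface protein that interferon induces in many leukocytes and no member of the list, had 574 to 975 FPKM (median 715) in D1 AP+Lac, against 73.8, 79.9 and 42.9 FPKM in NC (log2 fold change 3.53, SE 0.54, adjusted p = 3.1e-05).

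Of 20 lipid-associated genes 5 were higher and 5 lower; 2 were higher without NC library 1, and 3 were higher and 3 lower without NC library 3. The counts were 3 and 4 without D1 AP+Lac libraries 5 and 6, 3 and 4 in the fit with the acinar level, and 8 and 5 in that with the lymphocyte level. Spp1, osteopontin, had 56.5, 126 and 468 FPKM (lowest, median, highest) in D1 AP+Lac, against 11.0, 14.6 and 8.02 FPKM in NC (log2 fold change 3.73, SE 0.51, adjusted p = 5.1e-06). D1 AP+Lac libraries 5 and 6 were its highest with 439.9 and 468 FPKM. Gpnmb, a glycoprotein of lipid-laden macrophages, had 6.46, 11.0 and 41.0 FPKM (lowest, median, highest) in D1 AP+Lac, against 1.39, 2.76 and 1.70 FPKM in NC (log2 fold change 2.44, SE 0.47, adjusted p = 5.1e-04). Trem2, the lipid receptor that gives the state its name, had 57.9, 81.3 and 188 FPKM (lowest, median, highest) in D1 AP+Lac, against 35.2, 40.0 and 47.1 FPKM in NC (log2 fold change 1.16, SE 0.34, adjusted p = 0.014). Trem2 lost its call without NC library 1 (adjusted p = 0.073) and without D1 AP+Lac libraries 5 and 6 (adjusted p = 0.057). The lipoprotein lipase gene Lpl and the elastase gene Mmp12 went the other way, with -2.25 and -2.27. The matrix protease genes Mmp9 and Mmp13 were lower as well. Mmp9, a gelatinase, had a low of 1.46, a median of 6.08 and a high of 10.7 FPKM in D1 AP+Lac, against 38.2, 58.0 and 65.4 in NC (log2 fold change -3.07, SE 0.48, adjusted p = 3.4e-05). Mmp13, a collagenase, had 0.0978, 0.152 and 1.36 FPKM (lowest, median, highest) in D1 AP+Lac, against 6.05, 4.67 and 6.54 FPKM in NC (log2 fold change -2.33, SE 0.24, adjusted p = 6.4e-08). Timp1, an inhibitor of these proteases, was higher, with 3.51 to 9.47 FPKM (median 5.44) in D1 AP+Lac, against 0.368, 1.36 and 0.0300 FPKM in NC (log2 fold change 2.12, SE 0.33, adjusted p = 3.0e-05). None of the 3 overlapped. Timp2, another inhibitor, was lower (-1.22). In all, 3 of 18 protease and inhibitor genes were higher (16.7%, background 8.64%), of which only Timp1 is named here, and 5 were lower (27.8%, background 12.5%).

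**Figure D5:**
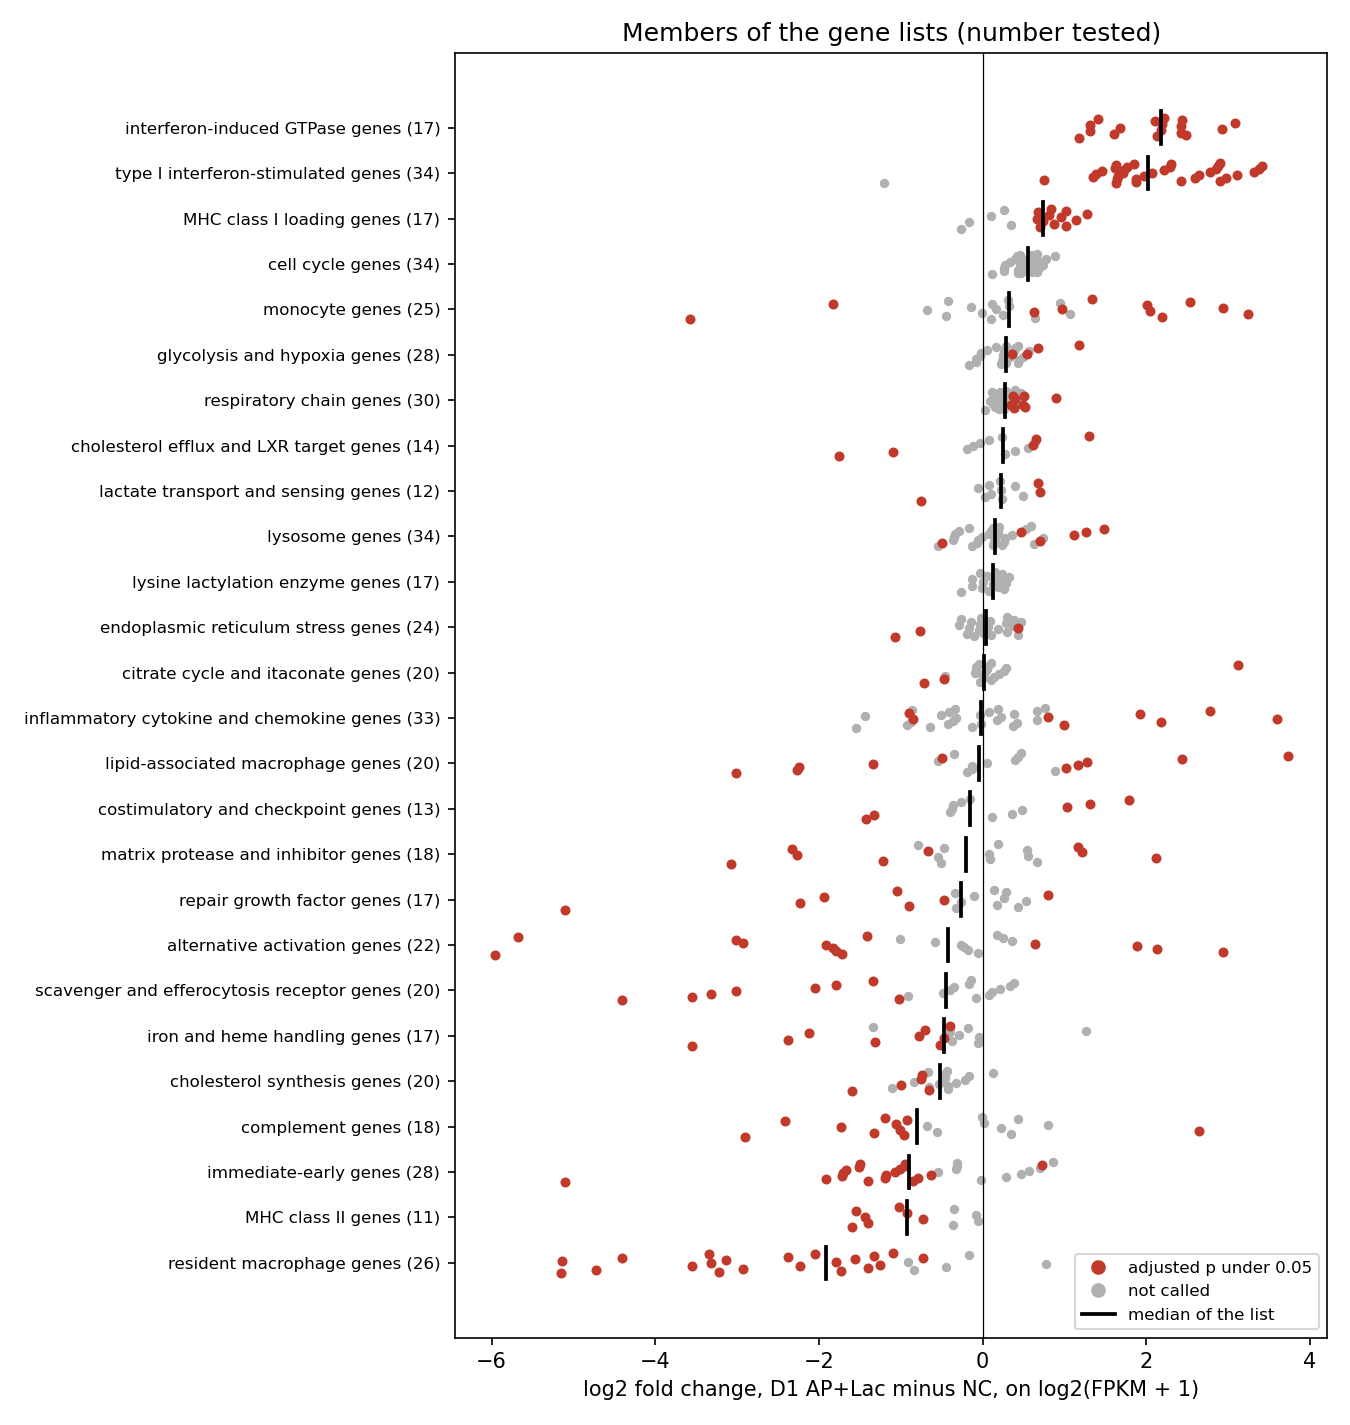
Log2 fold change of D1 AP+Lac minus NC (x axis) for each tested member of 26 gene lists (y axis, number of members in brackets), red where the adjusted p was under 0.05 and grey where it was not, with a black line at the median of the list; lists share some genes. Interferon-induced GTPase genes had the highest median (2.18) and resident macrophage genes the lowest (-1.92).

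Of 18 complement genes 9 were lower and 1 higher, with a median of -0.80. C4b and C2, which form the convertase of the classical pathway, fell (-2.42 and -1.73). Cfb, factor B, which drives the alternative pathway and responds to interferon, was the member that rose, with 196 to 492 FPKM (median 276) in D1 AP+Lac, against 43.2, 68.7 and 35.4 FPKM in NC (log2 fold change 2.65, SE 0.61, adjusted p = 0.0024). In the fit with the acinar level its log2 fold change was 1.19 (adjusted p = 0.10), and 0 complement genes were higher. Iron genes fell where they were called: 9 of 17 were lower and 0 higher, and 5, 5 and 3 were lower without NC library 1, 2 or 3 in turn and 4 in the fit with the acinar level. Slc40a1, the iron exporter ferroportin, had 0.910, 2.23 and 3.70 FPKM (lowest, median, highest) in D1 AP+Lac, against 14.8, 11.1 and 21.4 FPKM in NC (log2 fold change -2.38, SE 0.33, adjusted p = 7.1e-06). Trf, transferrin, had 97.2 to 239.9 FPKM (median 168) in D1 AP+Lac, against 741, 606 and 834 FPKM in NC (log2 fold change -2.12, SE 0.28, adjusted p = 3.8e-06).

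Immediate-early genes, which cells switch on within minutes of a stimulus and also during tissue dissociation, were lower in D1 AP+Lac. Of 28, 17 were lower and 1 higher, with a median of -0.90, and 17 were lower and 3 higher without D1 AP+Lac libraries 5 and 6. Ccn1, a matricellular target of mechanical signals, had a low of 0.0994, a median of 1.20 and a high of 1.82 FPKM in D1 AP+Lac, against 111, 32.2 and 76.8 in NC (log2 fold change -5.11, SE 0.44, adjusted p = 2.5e-09). Jun, a subunit of the AP-1 factor, had a low of 114, a median of 138 and a high of 170 FPKM in D1 AP+Lac, against 437, 407 and 509 in NC (log2 fold change -1.67, SE 0.19, adjusted p = 3.0e-07). Klf2, a factor that keeps myeloid cells quiet, had 101, 126 and 148 FPKM (lowest, median, highest) in D1 AP+Lac, against 393, 306 and 356 FPKM in NC (log2 fold change -1.50, SE 0.19, adjusted p = 2.5e-06). The groups did not overlap for any of them. Whether the tissue was dissociated alike in both groups is not given, and this was not tested.

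Growth factors of repair were lower or not called, with 1 exception. Of 17 genes 6 were lower and 1 higher. Igf1, insulin-like growth factor 1, had 2.01 to 4.82 FPKM (median 2.83) in D1 AP+Lac, against 14.8, 14.2 and 26.1 FPKM in NC (log2 fold change -2.23, SE 0.29, adjusted p = 3.5e-06). Pdgfb, which draws pericytes and fibroblasts, had 3.62 to 7.31 FPKM (median 4.76) in D1 AP+Lac, against 22.2, 21.4 and 23.0 FPKM in NC (log2 fold change -1.95, SE 0.21, adjusted p = 1.6e-07). Vegfb, a vascular growth factor, fell by 1.04 on the log2 scale. Vegfa had 0.754 to 2.35 FPKM (median 1.54) in D1 AP+Lac, against 1.16, 1.01 and 1.15 FPKM in NC. Tgfb1 had a low of 90.8, a median of 102 and a high of 125 FPKM in D1 AP+Lac, against 119, 128 and 124 in NC, and both had overlapping ranges and no call (adjusted p = 0.57 and 0.096). The exception was Osm, oncostatin M (log2 fold change 0.80, SE 0.27, adjusted p = 0.034), which lost its call without D1 AP+Lac library 1, 2 or 5 or NC library 1 or 3 (adjusted p = 0.056 to 0.23) and in the fit with the acinar level (adjusted p = 0.19).

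The inflammatory cytokine genes Il1b and Tnf were not called, nor was Il10, which encodes an anti-inflammatory cytokine. Il1b had a low of 76.6, a median of 164 and a high of 249 FPKM in D1 AP+Lac, against 134, 139.5 and 118 in NC (log2 fold change 0.19, SE 0.39, adjusted p = 0.79). Tnf had 7.86, 12.3 and 23.5 FPKM (lowest, median, highest) in D1 AP+Lac, against 34.1, 21.4 and 23.7 FPKM in NC (log2 fold change -0.86, SE 0.33, adjusted p = 0.065). Il10 had 3.73, 5.77 and 12.1 FPKM (lowest, median, highest) in D1 AP+Lac, against 6.03, 4.21 and 5.81 FPKM in NC (log2 fold change 0.17, SE 0.38, adjusted p = 0.79). All 3 overlapped, so a difference could not be told from the spread between libraries at this number. Of 33 inflammatory cytokine and chemokine genes 6 were higher (18.2%, background 8.64%) and 2 lower (6.06%, background 12.5%). The higher count was 3 without D1 AP+Lac library 1 or 2, 2 without NC library 1, 1 without NC library 3 and 0 in the fit with the acinar level, and the higher ones with the smallest p were Cxcl10, Il1rn and Cxcl9, described above. Among costimulatory and checkpoint genes 3 of 13 were higher and 2 lower; 4 were lower without D1 AP+Lac libraries 5 and 6, and 0 were higher in the fit with the acinar level. Cd274, which encodes PD-L1, had 38.7 to 66.3 FPKM (median 50.6) in D1 AP+Lac, against 15.4, 15.4 and 11.0 FPKM in NC (log2 fold change 1.79, SE 0.47, adjusted p = 0.0074) but lost its call without NC library 3 (adjusted p = 0.056) and in the fit with the acinar level (adjusted p = 0.17). Cd200r1, an inhibitory receptor, had 6.86, 7.74 and 12.1 FPKM (lowest, median, highest) in D1 AP+Lac, against 22.9, 26.4 and 22.8 FPKM in NC (log2 fold change -1.43, SE 0.19, adjusted p = 4.9e-06).

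Of 12 tested genes for the transport, conversion and sensing of lactate itself, 2 were higher (16.7%, background 8.64%) and 1 lower (8.33%, background 12.5%). Emb, embigin, the partner protein of a monocarboxylate transporter, had 58.9 to 79.9 FPKM (median 71.6) in D1 AP+Lac, against 40.2, 56.5 and 34.9 FPKM in NC (log2 fold change 0.69, SE 0.17, adjusted p = 0.0042). Slc16a7, the high-affinity transporter MCT2, had 1.83, 2.77 and 4.75 FPKM (lowest, median, highest) in D1 AP+Lac, against 5.34, 4.95 and 7.14 FPKM in NC (log2 fold change -0.75, SE 0.19, adjusted p = 0.005). Emb lost its call without NC library 3 (adjusted p = 0.067) and in the fit with the acinar level (adjusted p = 0.085), and Slc16a7 lost its call without NC library 3 (adjusted p = 0.066). Ldha, which makes lactate from pyruvate, had 60.4, 74.9 and 125 FPKM (lowest, median, highest) in D1 AP+Lac, against 54.8, 70.3 and 50.4 FPKM in NC (log2 fold change 0.49, SE 0.19, adjusted p = 0.064). Its sister Ldhb was called (log2 fold change 0.68, SE 0.22, adjusted p = 0.03) but lost its call without D1 AP+Lac library 1 or 6 or NC library 1, 2 or 3 (adjusted p = 0.051 to 0.1) and without D1 AP+Lac libraries 5 and 6 (adjusted p = 0.058). The main transporters Slc16a1 (MCT1) and Slc16a3 (MCT4) had fold changes of 0.39 and 0.23, neither called. Slc16a1 had 2.07, 6.22 and 11.0 FPKM (lowest, median, highest) in D1 AP+Lac, against 3.70, 4.71 and 3.43 FPKM in NC. Slc16a3 had a low of 6.42, a median of 10.9 and a high of 17.1 FPKM in D1 AP+Lac, against 7.54, 13.5 and 7.42 in NC. The lactate receptor gene Hcar1 was below the filter, with at most 0.0163 FPKM in D1 AP+Lac and 0.0164 FPKM in NC. Of 17 genes for enzymes linked to lysine lactylation, 0 were called in either direction by limma or by limma voom, with 0 at an unadjusted p under 0.05 and a median of 0.13. The acetyltransferase gene Ep300 had a low of 15.9, a median of 22.2 and a high of 26.1 FPKM in D1 AP+Lac, against 19.8, 16.8 and 21.4 in NC (log2 fold change 0.16, SE 0.18, adjusted p = 0.59).

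Energy metabolism moved by small amounts. In glycolysis and hypoxia 4 of 28 genes were higher and 0 lower, led by Ndrg1, a stress gene that low oxygen induces, with 10.2 to 20.1 FPKM (median 14.5) in D1 AP+Lac, against 5.34, 6.60 and 5.39 FPKM in NC (log2 fold change 1.17, SE 0.18, adjusted p = 3.0e-05). That count was 2 without D1 AP+Lac library 1, 8 without library 6, 11 without libraries 5 and 6, 2 in the fit with the acinar or the lymphocyte level and 1 without NC library 1 or 3. Of 30 respiratory chain genes 8 were higher and 0 lower, with a median of 0.27; the count was 4 without NC library 1, 2 without NC library 3, 14 without D1 AP+Lac library 6, 18 without D1 AP+Lac libraries 5 and 6 15 in the fit with the acinar level and 5 in that with the lymphocyte level. Cycs, cytochrome c, had 13.5 to 28.9 FPKM (median 25.4) in D1 AP+Lac, against 10.9, 14.8 and 10.3 FPKM in NC (log2 fold change 0.90, SE 0.21, adjusted p = 0.0034). Cholesterol synthesis showed 5 of 20 genes lower and 0 higher. The count of the list was 8 without D1 AP+Lac library 2, 9 without library 3, 3 without NC library 1 and 2 without NC library 2 or 3. It was 2 without D1 AP+Lac libraries 5 and 6, 18 in the fit with the lymphocyte level and 1 in that with the acinar level. The sterol pump gene Abcg1 was higher, with 29.5 to 79.2 FPKM (median 40.2) in D1 AP+Lac, against 19.3, 20.4 and 13.7 FPKM in NC (log2 fold change 1.30, SE 0.28, adjusted p = 0.0012), and the related transporter gene Abca9 lower (-1.75). Lysosome genes had 5 of 34 higher and 1 lower. The higher count was 3 without D1 AP+Lac library 5 or 6 or any 1 NC library, 3 in the fit with the acinar level and 21 in that with the lymphocyte level, and without D1 AP+Lac libraries 5 and 6 there were 3 higher and 5 lower. The called members included Gla, alpha-galactosidase (1.48), and Ctsd, cathepsin D (1.27).

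Cell division could not be separated from the spread. Of 34 cell cycle genes 0 were called by limma, with a median of 0.56, while 11 were higher without D1 AP+Lac libraries 5 and 6 and 16 in the fit with the acinar level. The list level was 3.63 to 5.26 in D1 AP+Lac and 3.79 to 3.90 in NC. Mki67, the proliferation marker Ki-67, had 11.9, 20.1 and 45.1 FPKM (lowest, median, highest) in D1 AP+Lac, against 18.3, 13.4 and 17.8 FPKM in NC (log2 fold change 0.39, SE 0.42, adjusted p = 0.56). At an unadjusted p under 0.05, 4 of the 34 were higher and 0 lower, and limma voom on the recovered fragments called 0.

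Acinar and injury genes, which macrophages are not known to make in quantity, moved in opposite directions. Of 29 acinar genes 0 rose and 19 fell, with a median of -1.88. Pnlip, pancreatic lipase, had 15.7, 40.2 and 66.6 FPKM (lowest, median, highest) in D1 AP+Lac, against 1233, 753 and 703 FPKM in NC (log2 fold change -4.63, SE 0.65, adjusted p = 9.1e-06). Cela1, an elastase, had 37.8, 62.9 and 112 FPKM (lowest, median, highest) in D1 AP+Lac, against 1028, 682 and 612 FPKM in NC (log2 fold change -3.54, SE 0.62, adjusted p = 1.6e-04). The phospholipase gene Pla2g1b (-3.58) and the trefoil factor gene Tff2 (-3.62), a peptide of mucous secretions, were also among the 15 lowest. Prss2, a trypsinogen, had 129 to 470 FPKM (median 168) in D1 AP+Lac, against 893, 656 and 563 FPKM in NC (log2 fold change -1.78, SE 0.64, adjusted p = 0.046) and lost its call without D1 AP+Lac library 1, 2, 3, 5 or 6 or NC library 1, 2 or 3 (adjusted p = 0.059 to 0.17), without D1 AP+Lac libraries 5 and 6 (adjusted p = 0.096) and in the fit with the acinar level (adjusted p = 0.25). Of 6 lectin genes of injured acinar cells 3 were higher and 0 lower, and 6 were higher in the fit with the acinar level. Reg3b had 83.8 to 362 FPKM (median 113) in D1 AP+Lac, against 11.2, 3.25 and 9.32 FPKM in NC (log2 fold change 4.03, SE 0.62, adjusted p = 3.3e-05). Reg3g had 10.1, 15.7 and 47.8 FPKM (lowest, median, highest) in D1 AP+Lac, against 0.989, 0.374 and 1.10 FPKM in NC (log2 fold change 3.32, SE 0.58, adjusted p = 1.6e-04), both with D1 AP+Lac library 4 as the highest. Reg3a was the third (2.28) and lost its call without D1 AP+Lac library 4 or NC library 1, 2 or 3 (adjusted p = 0.055 to 0.082). By limma voom on the recovered fragments Reg3g and Reg3a were not called (adjusted p = 0.052 and 0.27). The members of the Reg3 family are similar copies. Jchain of plasma cells (-1.05) and S100a8 of neutrophils (0.83) had overlapping ranges and were not called.

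Other genes among the 15 lowest were Lyz1, a lysozyme of Paneth cells and some macrophages (-4.01), and Lilra5, an activating receptor of myeloid cells (-3.75), which belonged to none of these groups. Ear2 of the monocyte list, given above, was also among them. The 15 highest and the 15 lowest genes were all called in each of the 9 fits without 1 library, and none had overlapping ranges. The largest adjusted p by limma on the log2 scale was 0.0065 among the higher and 1.6e-04 among the lower. By limma voom on the recovered fragments Acod1 and Reg3g of the 15 highest were not called (adjusted p = 0.05 and 0.052). The 15 highest and 15 lowest were picked as the most extreme of the genes already called, so their calls and lack of overlap follow largely from the choice. The same holds for list members named for a small p. Of all called genes, 394 of 1033 higher and 832 of 1496 lower ones were called in each of these fits. The share of all tested genes without overlap is not given here.

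Where the signed difference from NC at day 1 with lactate was unlike that at day 0 was tested by the difference between D1 AP+Lac and D0, in which NC cancels. A gene called this way is not thereby nearer to NC or farther from it, since the groups can lie on opposite sides of NC. Cell cycle genes, for one, had a median log2 fold change against NC of -1.97 in D0 and 0.56 in D1 AP+Lac. Of 11960 genes 5240 (43.8%) were higher and 2312 (19.3%) lower in D1 AP+Lac. Quantile normalization turned this split round, with 2852 genes higher and 3930 lower, and so did median-ratio scaling, with 3621 higher and 4223 lower. All 11 MHC class II genes were higher than at day 0. Cd74 averaged 2891 ± 605 FPKM in D1 AP+Lac, 569.9 ± 97.7 in D0 and 7716 ± 704 in NC, so that D1 AP+Lac lay between the other groups (log2 fold change 2.33, SE 0.17, adjusted p = 5.3e-11). All 34 cell cycle genes were higher than at day 0, with a median of 2.52, and Mki67 averaged 24.6 ± 13.9 FPKM in D1 AP+Lac, 1.69 ± 0.408 in D0 and 16.5 ± 2.69 in NC. Of the 17 interferon-induced GTPase genes 16 were higher than at day 0, whereas of the 34 type I interferon-stimulated genes 4 were, with medians of 1.98 and 0.44. Gbp4 averaged 51.4 ± 11.5 FPKM in D1 AP+Lac, 3.72 ± 0.858 in D0 and 8.41 ± 2.52 in NC (log2 fold change 3.45, SE 0.48, adjusted p = 1.6e-06). Isg15 averaged 490.2 ± 322 FPKM in D1 AP+Lac, 348 ± 182 in D0 and 39.0 ± 11.0 in NC (log2 fold change 0.40, SE 0.66, adjusted p = 0.61).

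Arg1 averaged 19.9 ± 9.45 FPKM in D1 AP+Lac, 690.4 ± 235 in D0 and 6.31 ± 8.92 in NC (log2 fold change -5.11, SE 0.65, adjusted p = 3.7e-07). Spp1 averaged 218 ± 187 FPKM in D1 AP+Lac, 2015 ± 730.3 in D0 and 11.2 ± 3.32 in NC (log2 fold change -3.59, SE 0.43, adjusted p = 1.8e-07). Of the 25 monocyte genes 1 was higher and 15 lower than at day 0, and of the 24 endoplasmic reticulum stress genes 0 were higher and 17 lower. Lyve1 averaged 9.97 ± 3.62 FPKM in D1 AP+Lac, 9.36 ± 4.85 in D0 and 285 ± 81.7 in NC, and did not differ by the test from day 0 (log2 fold change 0.14, SE 0.32, adjusted p = 0.72). Timd4 averaged 2.21 ± 0.827 FPKM in D1 AP+Lac, 0.434 ± 0.184 in D0 and 66.8 ± 18.9 in NC (log2 fold change 1.13, SE 0.21, adjusted p = 7.4e-05). Markers of lymphocytes were also higher than at day 0, 20 of 20 for T and NK cells and 15 of 15 for B and plasma cells. With their level in the fit, 1406 genes were higher than in D0.

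Where the signed difference from NC was unlike between lactate and PBS was tested in the same way, with the same limit. Of 11960 genes 617 (5.16%) were higher and 545 (4.56%) lower in D1 AP+Lac than in D1 AP+PBS. These counts were unstable: 0 genes were called in a limma fit of these 12 libraries alone, where 2215 of 11349 had an unadjusted p under 0.05, and 124 higher and 67 lower genes were called without PBS library 1. Of the 15 genes highest against NC 12 were also higher than with PBS, and of the 15 lowest 0 differed; these comparisons share the 6 D1 AP+Lac libraries and are not independent. Of the 34 type I interferon-stimulated genes 32 were higher, of the 17 GTPase genes 17, and of the 17 class I loading genes 12. The type I list level was 5.61 to 7.55 in D1 AP+Lac, against 4.00 to 4.52 in PBS libraries 1 to 4 and 6.98 and 5.75 in PBS libraries 5 and 6. Without PBS library 1 the type I and GTPase counts were 2 and 6, and without PBS library 4 they were 2 and 9. These counts were 0 and 0 in the fit of the 12 libraries alone, and 33 and 17 without libraries 5 and 6 of both groups. The class I loading count was 9 without PBS library 1 or 4 and 0 in the fit of the 12 libraries alone. It was 15 without libraries 5 and 6 of both groups. Isg15 averaged 490.2 ± 322 FPKM in D1 AP+Lac and 157 ± 250.1 in D1 AP+PBS (log2 fold change 2.60, SE 0.62, adjusted p = 0.014).

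Among the genes lower than NC, the resident list had 8 of 26 lower than with PBS and 0 higher; 2 were lower without PBS library 1 or 4, 18 without PBS library 5, 0 in the fit of the 12 libraries alone and 22 without libraries 5 and 6. Gas6 averaged 52.0 ± 17.8 FPKM in D1 AP+Lac, 112 ± 44.8 in D1 AP+PBS and 212 ± 40.4 in NC (log2 fold change -1.06, SE 0.24, adjusted p = 0.012). Mrc1 averaged 123 ± 27.9 FPKM in D1 AP+Lac, 224 ± 69.9 in D1 AP+PBS and 424 ± 102 in NC (log2 fold change -0.84, SE 0.26, adjusted p = 0.039). Retnla averaged 41.0 ± 9.04 FPKM in D1 AP+Lac, 71.7 ± 19.7 in D1 AP+PBS and 2623 ± 674 in NC and was not called between the day 1 groups (log2 fold change -0.77, SE 0.31, adjusted p = 0.11). Of the MHC class II genes 0 of 11 were called between the day 1 groups, Cd74 averaging 2891 ± 605 FPKM with lactate and 2925 ± 705 with PBS (log2 fold change -0.01, SE 0.16, adjusted p = 0.99). Immediate-early genes were lower with lactate than with PBS for 8 of 28 and higher for 2; without PBS library 1 or 4 each count was 1, and in the fit of the 12 libraries alone 0. Without PBS library 5, 16 were lower, and without libraries 5 and 6 of both groups 14. Gzmb was higher with lactate and averaged 74.6 ± 45.5 FPKM in D1 AP+Lac, 15.8 ± 12.9 in D1 AP+PBS and 3.46 ± 0.452 in NC (log2 fold change 2.28, SE 0.36, adjusted p = 0.0045). Of the 20 T and NK cell markers 7 were higher than with PBS and 0 lower. The higher count was 0 in the fit of the 12 libraries alone, 5 without PBS library 1 or 4 and 17 without libraries 5 and 6 of both groups.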

How the data were processed

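Per the labels' protocols, each library started from 10 ng of RNA. Of tools, fastp and R 3.2.0 appear, per the submitters' processing notes. Which aligner, counter and build were used is not given in the sources here. The authors deposited 1 table of FPKM values for 25301 genes (18017 protein-coding) in 28 libraries, and each column was put into its group by its label. How fragments of similar or overlapping genes were shared out is not stated. FPKM are relative, and lower for every other gene where 1 cell type takes up more of a library.

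Whole fragments were recovered from the steps between FPKM values: 100% of values came out whole (tolerance 0.0001), with totals of 33273303 to 41060490 fragments over the 28 libraries. No pair of libraries within D1 AP+Lac or within NC looked like one library deposited again (18 pairs, chi-square per degree of freedom of 27.4 or more). Pairs within the other groups and across groups were not checked in this way.

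A gene was tested when 3 or more libraries reached 1 FPKM (11960 genes). One limma 3.58.1 model (R 4.3.3) on log2(FPKM + 1) gave each of the 6 groups a mean, with variances moderated robustly and with a trend, two-sided p-values and Benjamini-Hochberg adjustment; the fit was tested on simulated data. Limma voom on the recovered fragments called 915 higher and 1517 lower genes against NC. Gene lists (39, of which 13 are cell type markers) are described by counts and medians with no set test. The comparison, its members, the gene lists and most settings were chosen with earlier results of these data known. Named genes are the 15 highest and 15 lowest fold changes among called protein-coding genes that average 5 FPKM or more in either group and have no gene-model name, up to 5 members with the smallest p of each list, and 32 genes chosen for their role; a gene named after its value was seen is marked as such. Promoters came from a RefSeq table of GRCm38.p6 matched by symbol. Python 3.11.15 with numpy 2.4.6, pandas 2.3.3, scipy 1.17.1 and matplotlib 3.10.9 was used for the rest. A few of the named genes are not reported here.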

Additional observations from a re-analysis of the deposited data

Results flagged for a closer look

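For the genes named and the list levels, a D1 AP+Lac library was looked at again when its gap to the nearest other library, divided by the range of the group, passed Dixon's 95% critical value for 6 libraries (0.625). Of 241 groups of values examined 12 were picked out, and chance alone picks out about 1 in 20.

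Most of them came from D1 AP+Lac library 4. Reg3b was at 362 FPKM there and at 83.8 to 136 FPKM in the other 5, Reg3g at 47.8 against 10.1 to 17.1, and Reg2 at 396 against 82.1 to 148. The level of the injury lectin list was 6.64 in library 4, against 4.74 to 5.34 in the others. Amy2a5, an amylase gene, was at 0.895 FPKM in this library (0.276 to 0.465 in the others), and Cdh5, the endothelial cadherin gene, at 3.46 FPKM (0.742 to 1.30). Tap1 and Vegfb were lowest there, at 158 FPKM (178 to 189) and 3.30 FPKM (4.70 to 5.65). Without library 4 every one of the 15 highest genes, Reg3b and Reg3g included, was still called against NC.

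In D1 AP+Lac library 5, Fcna was at 28.6 FPKM (16.3 to 17.8 in the others), Irgm1 at 216 FPKM (125 to 150) and Mmp13 at 1.36 FPKM (0.0978 to 0.443). In library 6, Cd209f was at 1.97 FPKM (2.95 to 3.51). Each of these values stayed on the same side of the NC libraries as the rest of its group.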

How the results depend on the processing

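Each comparison was refitted with a pseudocount of 0.1, without the filter or with one at 5 FPKM, under quantile or median-ratio scaling, on the compared groups alone, with plain variance moderation, limma's treat or voom, with an acinar or lymphocyte covariate, without acinar genes, with a replicate block and without each library; leaving out day 1 libraries 5 and 6 was chosen after the data were seen. Where a count moved, the cause was not tested. Against NC, treat called 15 higher and 119 lower genes, and 1906 were higher without D1 AP+Lac libraries 5 and 6, 940 lower under the stricter filter, which tests fewer genes, and 2297 lower with the lymphocyte covariate. With each library left out 431 to 1371 were higher and 913 to 1643 lower. Against D0, 3414 were higher under the stricter filter, 2852 after quantile normalization and 1406 with the lymphocyte covariate; 3930 were lower after quantile normalization and 4223 after median-ratio scaling; treat called 453 and 126. Against D1 AP+PBS, no filter gave 351 higher and 265 lower genes, the groups alone 0 and 0, treat 0 and 0, day 1 libraries 5 and 6 left out 1954 and 1466, and each library left out 124 to 1224 and 67 to 1154. Libraries that moved these counts by over 1.5 times when left out were PBS 1 (124 and 67), PBS 4 (132 and 79), PBS 5 (1224 and 1154) and D1 AP+Lac 1 (359 and 284), 3 (401 and 240), 4 (397 and 298) and 6 (1133 and 1084), and for lower genes also D1 AP+Lac 2 (324) and PBS 6 (341); 250 were lower with the lymphocyte covariate. Both distances from NC kept their direction and their side of the threshold under every alternative run for them (difference of 0.0495 to 0.0698 from D1 AP+PBS and -0.388 to -0.154 from D0).

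Of 201 named genes a few changed sign. With the acinar covariate these were Reg3d (1.22), Egfl7 (0.023), Hbb-bt (0.23), Kat2b (-0.059), Slc16a3 (-0.26), Prss2 (0.24), Jchain (1.09) and S100a8 (-0.004); with the lymphocyte covariate Cd79a (-0.29), Hdac1 (-0.029), Il1b (-0.18), Mki67 (-0.22) and Slc16a1 (-0.22); without D1 AP+Lac library 5 Il10 (-0.001; 0.293 at most without any other library); without libraries 5 and 6 Jchain (0.029). The acinar covariate ended the call of 46 further named genes, the most of any setting but treat (110).

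Replicate numbers recur in the groups, but same-numbered libraries did not deviate together in every pair: the correlations with D1 AP+Lac were 0.178, 0.152 and -0.149 for NC, -0.226 to 0.236 for D0, and for D1 AP+PBS 0.493, 0.610, 0.348 and 0.529 for numbers 2, 3, 5 and 6 but -0.340 and -0.214 for 1 and 4. The libraries were therefore not treated as paired. With the replicate block 1242 genes were higher and 1397 lower against NC, 5410 and 2316 against D0, 707 and 593 against D1 AP+PBS, and Jchain was at 0.14. The 3 NC libraries limit what can be called: without NC library 3, 34 named genes lost their call.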

Other observations

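A pair of gene models that the deposited table annotates with serine-type endopeptidase activity and pancreatic secretion, left out of the named genes by the rule on model names and singled out here after their values were seen, were higher in D1 AP+Lac. Gm2663 had 22.4 to 91.3 FPKM (median 40.8) in D1 AP+Lac, against 0.0314, 0.0302 and 0.0920 FPKM in NC (log2 fold change 5.36, SE 0.63, adjusted p = 5.6e-07 by limma). 1810009J06Rik had 7.59 to 33.5 FPKM (median 15.4) in D1 AP+Lac, against 0, 0.0307 and 0.0624 FPKM in NC (log2 fold change 4.01, adjusted p = 2.8e-05 by limma). No D1 AP+Lac library overlapped NC for either, while 19 of 29 acinar genes were lower. Gm2663 averaged 76.6 ± 46.2 FPKM in D1 AP+PBS (SD, n = 6) and 17.7 ± 4.39 FPKM in D0 (SD, n = 5), and 1810009J06Rik averaged 26.5 ± 13.9 FPKM in D1 AP+PBS and 9.26 ± 1.81 FPKM in D0. How fragments were shared with similar protease genes is not stated.

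Dendritic cell markers moved in both directions. Siglech, a receptor of plasmacytoid dendritic cells, had 0.556 to 1.98 FPKM (median 1.38) in D1 AP+Lac, against 6.72, 5.94 and 7.92 FPKM in NC (log2 fold change -1.80, SE 0.25, adjusted p = 6.9e-06 by limma). Batf3, a factor of the cross-presenting lineage, had 22.9 to 29.6 FPKM (median 27.4) in D1 AP+Lac, against 46.5, 57.5 and 45.2 FPKM in NC, a log2 fold change of -0.86. Irf8, which that lineage also needs and which interferon induces, was higher, with 126 to 176 FPKM (median 142) in D1 AP+Lac, against 87.3, 94.1 and 93.6 FPKM in NC (log2 fold change 0.67, adjusted p = 8.1e-05 by limma). None of the 3 overlapped, and each was called in all 9 fits without 1 library. Of the 18 markers 2 were higher and 4 lower.

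Pf4, platelet factor 4, which macrophages also make, had 82.8 to 227 FPKM (median 145) in D1 AP+Lac, against 645, 537 and 829 FPKM in NC (log2 fold change -2.29, SE 0.40, adjusted p = 1.4e-04 by limma), and was the 1 erythroid or platelet marker called of the 3 that passed the filter.

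Promoter letters were also counted for a pair of other lists. TTTGAA, on either strand, stood in 14 of 28 cell cycle promoters (50.0%) and in 5466 of all 27025 (20.2%), and TGACGTGG in 0 of 22 endoplasmic reticulum stress promoters and in 193 of all (0.7%).

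The counts of the remaining lists were small and moved with the libraries and covariates used, as the counts over all genes did. Over all genes 1033 were higher (8.64%) and 1496 lower (12.5%). Without D1 AP+Lac libraries 5 and 6 these counts were 1906 and 1654, with the acinar covariate 835 and 1056, and with the lymphocyte covariate 1057 and 2297. Whether a list moved apart from all genes was not tested. Of 15 B and plasma cell genes 1 was higher, but 8 without D1 AP+Lac libraries 5 and 6, and with the lymphocyte covariate 7 were lower. Of 16 fibroblast and stellate cell genes 1 was higher and 1 lower, but 6 were higher without those libraries and 6 with the acinar covariate. Of 9 mast cell, basophil and eosinophil genes 1 was higher, against 5 without those libraries and 4 with the acinar covariate. Of 8 ductal genes 1 was higher, against 5 with the acinar covariate. Of 14 neutrophil genes 2 were higher and 1 lower, against 3 and 1 without those libraries and 0 and 1 with the acinar covariate. Of 9 endothelial genes 1 was lower, against 0 without those libraries and 3 with the lymphocyte covariate. The 1 islet gene tested was not called. Of 24 endoplasmic reticulum stress genes 1 was higher and 2 lower, against 4 and 2 without those libraries. Of 20 citrate cycle and itaconate genes 1 was higher and 2 lower, against 2 and 3 without those libraries, and of 14 cholesterol efflux and LXR target genes 3 were higher and 2 lower, against 1 and 1 with the acinar covariate.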
